A study of Mus musculus with 22 samples.

Results

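The 9 genes described here encode the water channels Aqp4 and Aqp8, the ion exchangers Slc26a3 and Slc9a3, the carbonic anhydrases Car1, Car2 and Car4, the chloride channel Cftr and the cotransporter Slc12a2. They were chosen by symbol, as 9 of the 23997 rows of the authors' expression table, and all 9 passed the filter on low values in every comparison. The 22 libraries were made from colon RNA of BALB/c mice, all wild type. In the DSS group (n = 5) the mice drank distilled water for 3 weeks, with 5% DSS in it in the last week. DSS (dextran sulfate sodium) is a sulfated polysaccharide that damages the gut lining and causes colitis. HMLS mice (n = 4) and TM mice (n = 5) drank a deep sea water, known here only by its abbreviation in the labels, for the same 3 weeks, with 5% DSS in it in the last week. The CON group (n = 8) drank distilled water with no DSS. Drinking began at 5 weeks of age. None of the groups analysed here drank deep sea water without DSS. The labels give neither the segment of colon nor whether each library is a separate mouse. The p-values of group comparisons thus set a difference against the spread between these libraries, which may be technical.

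Colonocytes at the surface absorb sodium chloride and water, and cells of the crypt secrete chloride, bicarbonate and water. In absorption, the exchanger encoded by Slc26a3 takes up chloride for bicarbonate while that encoded by Slc9a3 takes up sodium for protons, and carbonic anhydrases supply both with bicarbonate and protons made from carbon dioxide. In secretion, the cotransporter encoded by Slc12a2 loads chloride through the basolateral membrane and CFTR lets it out at the apical membrane. Human mutations of SLC26A3 cause congenital chloride diarrhoea, and those of CFTR cause cystic fibrosis.

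Promoters are printed for 2 of the 8 pairs of members that varied together between libraries of the same group (described further on), Slc26a3 with Aqp8 and Slc9a3 with Car4, which had the highest positive correlations. Each is the 250 bases before the RefSeq start (GRCm38.p6), 5′ to 3′ along the gene. RefSeq promoters were used for 5 of the 9 members (all but Aqp4, Car1, Car2 and Slc12a2). Capitals mark letters that match a searched motif on either strand.
Slc26a3 (chr12:31437969-31438218, plus strand): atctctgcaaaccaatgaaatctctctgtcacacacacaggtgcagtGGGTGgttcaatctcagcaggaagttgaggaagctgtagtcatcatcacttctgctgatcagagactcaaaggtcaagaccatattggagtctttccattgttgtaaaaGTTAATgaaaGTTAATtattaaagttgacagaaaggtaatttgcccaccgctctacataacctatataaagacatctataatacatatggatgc
Aqp8 (chr7:123462044-123462293, plus strand): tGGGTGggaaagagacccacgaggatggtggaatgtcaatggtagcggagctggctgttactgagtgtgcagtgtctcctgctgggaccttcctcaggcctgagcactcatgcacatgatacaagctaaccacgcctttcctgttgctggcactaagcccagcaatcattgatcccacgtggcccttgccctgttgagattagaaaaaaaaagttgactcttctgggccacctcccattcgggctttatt
Slc9a3 (chr13:74121163-74121412, plus strand): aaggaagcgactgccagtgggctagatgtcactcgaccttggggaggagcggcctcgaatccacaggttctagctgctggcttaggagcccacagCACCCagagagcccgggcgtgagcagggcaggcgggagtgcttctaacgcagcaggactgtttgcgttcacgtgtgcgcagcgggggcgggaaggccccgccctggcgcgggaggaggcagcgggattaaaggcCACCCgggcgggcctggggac
Car4 (chr11:84957504-84957753, plus strand): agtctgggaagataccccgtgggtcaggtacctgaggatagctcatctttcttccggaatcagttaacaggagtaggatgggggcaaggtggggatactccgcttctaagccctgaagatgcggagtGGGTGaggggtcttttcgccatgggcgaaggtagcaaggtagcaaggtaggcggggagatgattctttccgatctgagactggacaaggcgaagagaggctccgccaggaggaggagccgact
The motifs searched on both strands were TTTATGG (CDX type), GTTAAT (HNF1 type), CAAAGTC (HNF4 type) and CACCC (KLF type). The Slc26a3 window held GTTAAT at bases -94 to -89 and again at -84 to -79 before the start, and 6.43% of 32851 RefSeq promoter windows of the same length held it at least once. CACCC or its reverse complement was found in the windows of all 5 members whose promoter was used and in 52% of all windows. The letters searched for CDX and HNF4 were not in these 5 windows, and were in 2.43% and 3.84% of all windows. A match describes letters and is not a binding site. The GENCODE M21 span of Slc26a3 on GRCm38 is chr12:31390871-31473917, so its RefSeq start lies inside that span.

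**Figure D1:**
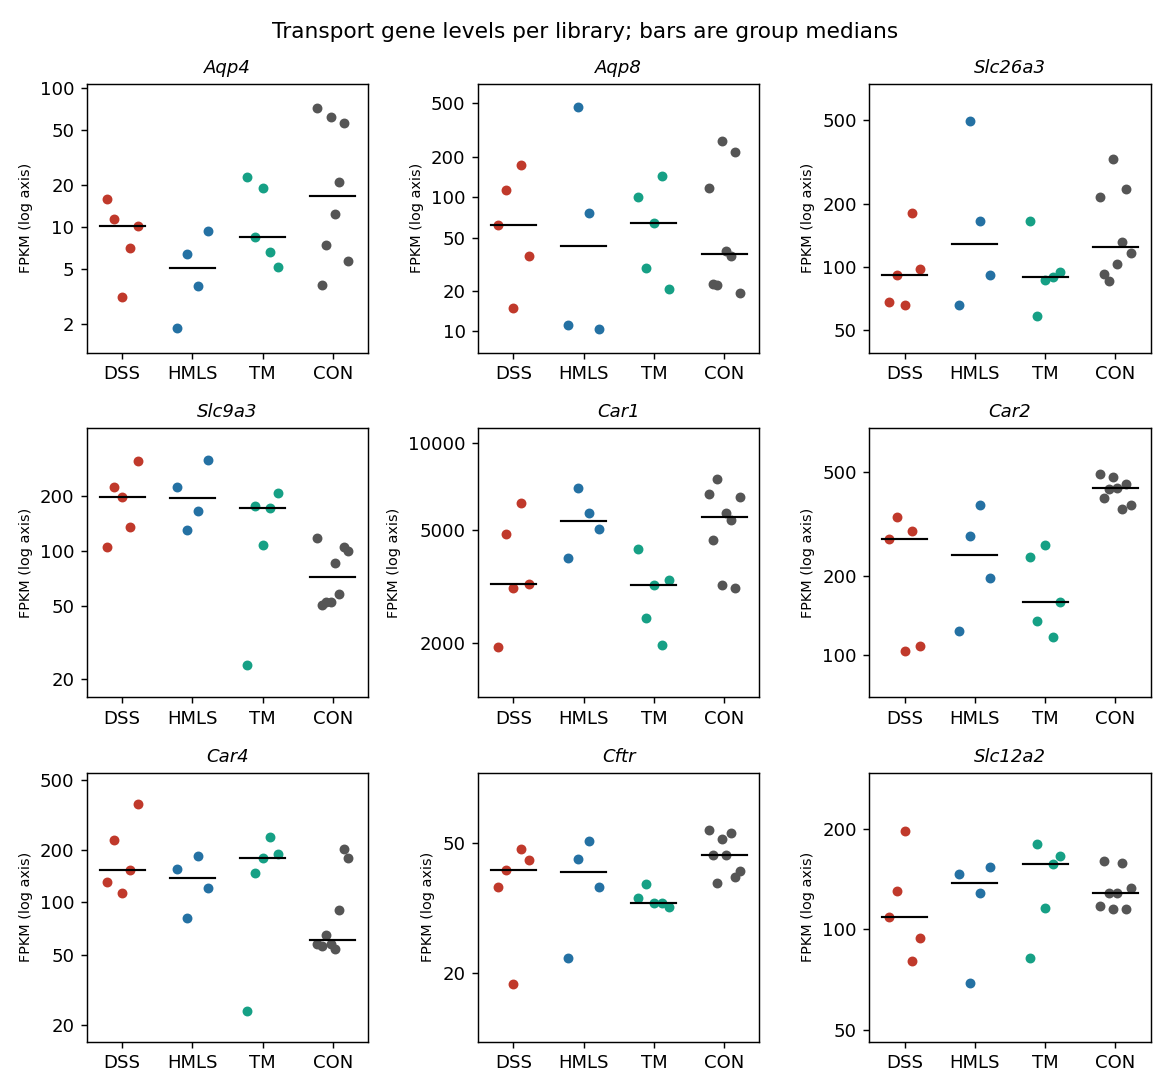
Level of each of the 9 genes in each of 22 libraries, in FPKM on a log axis. Each point is 1 library, groups run DSS, HMLS, TM and CON from left to right, and bars are group medians. For Car2, 13 of 14 colitis libraries lay below every CON library, and for Slc9a3 11 of 14 lay above every CON library. The share of all genes with such counts was not computed.

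FPKM counts fragments per unit of transcript length and relative to the size of the library and is thus a level per length, so levels can be set side by side between genes. Car1 had the highest mean level of the members, 4495 FPKM over the 22 libraries, rank 9 among all genes. In CON the order of mean levels was Car1 (5337 FPKM), Car2 (427), Slc26a3 (163), Slc12a2 (132), Car4 (95.4), Aqp8 (92.3), Slc9a3 (77.7), Cftr (46.2) and Aqp4 (30.1). The CON ranges of Car1 and Car2 and those of Car2 and Slc26a3 did not overlap, and from Slc26a3 down each gene's range overlapped that of the next. In DSS the order was Car1, Car2, Car4, Slc9a3, Slc12a2, Slc26a3, Aqp8, Cftr and Aqp4, and among these steps those from Car1 to Car2 and from Cftr to Aqp4 were free of overlap.

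Libraries held 48089882 to 68733410 reads, of which 82.3% to 88.9% were mapped in DSS, 88.8% to 90.5% in HMLS, 89.5% to 92.7% in TM and 89.9% to 91.9% in CON. The tissue was checked with 10 pan-epithelial genes (Epcam, Cdh1, Krt8 and others), each above 100 FPKM in every library. Their summed level was 5906 to 8708 FPKM in DSS, 6421 to 7001 FPKM in HMLS, 6275 to 8671 FPKM in TM and 4253 to 6876 FPKM in CON. Of the 10, 4 rose in DSS, 3 in HMLS and 5 in TM against CON, and none fell. Of 10 colonocyte genes that are no members, 3 rose and 1 fell in DSS, 3 rose and 0 fell in HMLS, and 2 rose and 2 fell in TM, and their sums were 3679 to 4852 FPKM in DSS, 4232 to 5379 FPKM in HMLS, 3087 to 5113 FPKM in TM and 3609 to 4636 FPKM in CON. Smooth muscle genes, of which 3 of 6 fell in DSS, 0 in HMLS and 4 in TM, summed to 561 to 2195 FPKM in DSS, 1286 to 2429.9 FPKM in HMLS, 804 to 1758 FPKM in TM and 1269 to 2466 FPKM in CON. Of the immune genes tested, 2 of 8 rose and 3 fell in DSS, 1 of 7 rose and 4 fell in HMLS, and 2 of 8 rose and 0 fell in TM. The immune genes that rose were the neutrophil genes S100a8 in all 3 groups and S100a9 in DSS and TM, which were under 1 FPKM in every CON library and so passed the filter on low values (given with the tests) through the colitis libraries. Among those that fell, Cd79b reached 1 FPKM in 2 libraries of DSS, 2 of HMLS and 8 of CON, and passed that filter through CON. These calls are counted and not read as a change. Immune genes summed to 41.1 to 112 FPKM in DSS, 32.1 to 81.8 FPKM in HMLS, 82.3 to 184 FPKM in TM and 61.6 to 168 FPKM in CON. Of 7 goblet cell genes, Tff3 rose in DSS, Muc2 and Agr2 fell in HMLS and 0 passed in TM, and they summed to 9491 to 17497 FPKM in DSS, 6454 to 10477 FPKM in HMLS, 8726 to 15413 FPKM in TM and 10948 to 16407 FPKM in CON. Levels relative to epithelium, given beside some genes, subtract from each library its mean log2 level of the pan-epithelial genes. This moves the difference of every gene in a comparison by the same amount, downward against CON in all 3 groups. The share of all genes that passed in this setting was not counted, so such calls are not read as particular to the members. The part of the other lists in the results was not tested.

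Each comparison was tested with limma on log2(FPKM + 1) over every gene that reached 1 FPKM in 4 or more of the libraries fitted. Passing means a Benjamini-Hochberg adjusted p under 0.05. Differences are on that log2 scale, with their SE after ±. In DSS against CON 2 of the 9 members rose (Slc9a3 and Car4) and 1 fell (Car2), where 27.1% of 13483 genes passed (14% higher and 13.1% lower). In HMLS against CON 1 rose (Slc9a3) and 1 fell (Car2), where 34.1% of 13400 genes passed (17.5% higher and 16.6% lower). In TM against CON 3 fell (Car1, Car2 and Cftr) and 0 rose, where 26% of 13485 genes passed (14.3% higher and 11.8% lower). The shares of members that passed, 33.3% in DSS, 22.2% in HMLS and 33.3% in TM, were near those of all genes or below them. These 3 comparisons share the CON libraries. The median log2 difference of the 9 members was -0.34 in DSS, -0.13 in HMLS and -0.43 in TM against CON, beside -0.01, 0.00 and 0.01 over all genes tested.

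**Figure D2:**
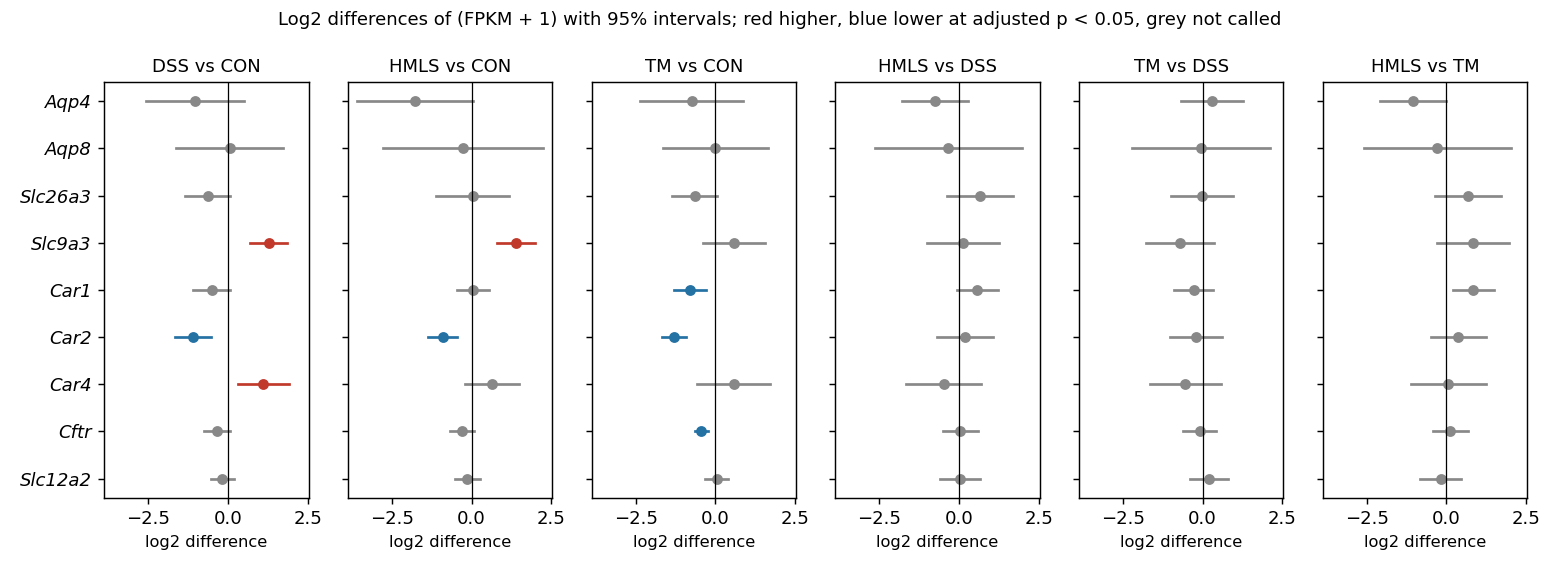
Log2 difference of (FPKM + 1) for each of the 9 genes in 6 comparisons, first-named group minus second, with 95% intervals. Zero means equal levels. The intervals of Car2 lie below 0 against CON in all 3 groups, those of Slc9a3 lie above 0 in DSS and HMLS, and between the colitis groups no gene passed.

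Aqp4 encodes a water channel of the basolateral membrane, best known from astrocyte endfeet and found in the gut in colonic surface cells and gastric parietal cells. Its gene lies at chr18:15389496-15410982 on GRCm38. Its level was 15.9, 11.5, 3.13, 7.05 and 10.2 FPKM in DSS replicates 1, 2, 5, 6 and 7. In HMLS it was 1.88, 6.46, 3.78 and 9.44 FPKM in replicates 3, 6, 7 and 8, and in TM 22.9, 8.55, 19.3, 6.60 and 5.21 FPKM in replicates 3, 5, 6, 7 and 8. CON libraries lay between 3.86 and 72.0 FPKM with a median of 16.8. The groups overlap, and the 3 highest values of all 22 libraries belong to CON replicates 1, 4 and 7 (72.0, 61.7 and 56.2 FPKM). The log2 difference was -1.04 ± 0.708 in DSS, -1.77 ± 0.819 in HMLS and -0.74 ± 0.739 in TM against CON (adjusted p = 0.29, 0.117 and 0.484). None passed, and the 95% intervals were wide, -2.57 to 0.50 for DSS and -3.59 to 0.04 for HMLS.

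The same CON replicates 1, 4 and 7 also had the largest summed level of 6 Hox genes of the distal hindgut, a family that marks position along the body axis. The sum was 75.3, 26.8 and 26.8 FPKM in CON replicates 1, 4 and 7, and 9.37 to 13.9 FPKM in the other 5 CON libraries. It was 4.09 to 15.7 FPKM in DSS, 9.46 to 15.0 in HMLS and 9.05 to 12.6 in TM. Hoxb13 stood at 63.0 FPKM in CON replicate 1 and at no more than 0.659 FPKM in each other library, and Hoxa13 at 21.5 and 19.8 FPKM in CON replicates 4 and 7. The rest of the sum, from the other genes of the list, was lower in CON replicates 1, 4 and 7 than in the other 5 CON libraries. The higher sum in these 3 libraries thus came from Hoxb13 and Hoxa13 and not from the rest of the list. Position along the colon was not tested. With these 3 CON libraries left out, a choice made after seeing the data, the difference of Aqp4 was -0.01 in DSS, -0.75 in HMLS and 0.28 in TM (adjusted p = 0.99, 0.286 and 0.719). Genes of gastric parietal cells (Atp4a, Atp4b, Gif and Tff1) were each under 1 FPKM in all 22 libraries. Enteric glia and neuron genes summed to 18.9 to 96.6 FPKM in DSS, 37.2 to 67.2 FPKM in HMLS, 28.4 to 70.1 FPKM in TM and 27.3 to 58.8 FPKM in CON, and 0 of these 10 genes passed in the 3 comparisons with CON.

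Aqp8, a water channel of colonocytes that also passes hydrogen peroxide, had the highest ratio of highest to lowest level of the members over the 22 libraries, 45.05, ahead of Aqp4 at 38.4. Its level was 61.6, 114, 15.0, 174 and 36.3 FPKM in DSS, in the same order of replicates as for Aqp4, and 11.2, 469, 75.7 and 10.4 FPKM in HMLS. In TM it was 100.1, 29.7, 64.3, 143 and 20.6 FPKM, and in CON 19.3 to 262 FPKM with a median of 37.9. HMLS replicate 6 was the highest of all 22 libraries and HMLS replicate 8 the lowest. The log2 difference was 0.06 ± 0.774 in DSS, -0.27 ± 1.13 in HMLS and 0.01 ± 0.757 in TM against CON (adjusted p = 0.962, 0.87 and 0.996). Intervals reached from -1.62 to 1.73 in DSS, -2.79 to 2.24 in HMLS and -1.64 to 1.65 in TM. Against the 5 CON libraries of low distal Hox sum the difference was 1.09 in DSS, 0.76 in HMLS and 1.04 in TM (adjusted p = 0.18, 0.651 and 0.167). Genes of pancreatic acinar cells, which also express Aqp8, summed to 2.12 to 6.49 FPKM in DSS, 3.49 to 5.21 FPKM in HMLS, 3.61 to 11.5 FPKM in TM and 7.03 to 26.3 FPKM in CON. Of these genes Prss2, Cpa1, Cpb1 and Amy2a5 were under 1 FPKM in every library, and the rest of the sum was Cela1, which fell in DSS and HMLS and did not pass in TM.

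Slc26a3, the apical chloride and bicarbonate exchanger, was at 67.9, 91.6, 65.5, 180.4 and 97.5 FPKM in DSS. In HMLS it was at 65.9, 497, 165 and 91.7 FPKM, in TM at 165, 58.4, 86.7, 89.3 and 93.9 FPKM, and in CON at 85.7 to 326 FPKM with a median of 124. The groups overlap, with 2 of 5 DSS, 1 of 4 HMLS and 1 of 5 TM libraries below every CON library and HMLS replicate 6 above all others. The log2 difference was -0.64 ± 0.333 in DSS, 0.03 ± 0.521 in HMLS and -0.64 ± 0.332 in TM against CON (adjusted p = 0.164, 0.966 and 0.167). Relative to epithelium, Slc26a3 passed as lower in DSS (-1.09, adjusted p = 0.00943) and in TM (-1.07, adjusted p = 0.00655), and did not pass in HMLS (-0.31, adjusted p = 0.647). Against the 5 CON libraries of low distal Hox sum the differences were -0.16 in DSS, 0.51 in HMLS and -0.16 in TM (adjusted p = 0.691, 0.487 and 0.65).

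Slc9a3 encodes NHE3, the apical sodium and proton exchanger that works beside Slc26a3 in salt absorption. It lies at chr13:74121457-74169442 on GRCm38. Its level was 105, 223, 198, 134 and 307 FPKM in DSS and 222, 129.6, 165 and 311 FPKM in HMLS. TM libraries had 23.9, 176, 107, 171 and 206 FPKM, and CON libraries 50.7 to 117 FPKM with a median of 72.1. All 4 HMLS libraries and 4 of 5 DSS libraries lay above every CON library, while TM replicate 3 lay below every other library of the series. Slc9a3 averaged 193 ± 79.3 FPKM in DSS (n = 5), 207 ± 79.4 in HMLS (n = 4) and 77.7 ± 27.3 in CON (n = 8, SD throughout). It rose 2.43-fold in DSS (log2 difference 1.28 ± 0.273, adjusted p = 0.00472) and 2.64-fold in HMLS (1.40 ± 0.277, adjusted p = 0.0024). Groups that do not overlap, as here in HMLS against CON, were seen for 15% of the genes tested in that comparison. In TM the difference was 0.58 ± 0.450 (adjusted p = 0.365), and it passed without TM replicate 3 (1.11, adjusted p = 0.00576). The call in DSS ended with the share of mapped reads as a covariate (0.72, adjusted p = 0.409). That share was lower in each of the 5 DSS libraries than in any CON library, so group and share cannot be told apart.

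Car1 encodes a cytosolic carbonic anhydrase abundant in colonocytes and in red blood cells. Its level was 1948, 4817, 3129.5, 6185 and 3220.5 FPKM in DSS, 3972, 6987, 5695 and 5020.4 FPKM in HMLS and 4269.7, 2452, 3204, 1973 and 3326 FPKM in TM. In CON it was 3126 to 7531 FPKM with a median of 5539.7. In TM 2 of 5 libraries lay under every CON library, and the HMLS libraries lay within the CON range. Car1 fell 1.73-fold in TM (log2 difference -0.79 ± 0.237, adjusted p = 0.0231). That call ended without TM replicate 5 (-0.73, adjusted p = 0.0645) and without TM replicate 7 (-0.65, adjusted p = 0.0706). In DSS the difference was -0.51 ± 0.274 and in HMLS 0.06 ± 0.234 (adjusted p = 0.172 and 0.869). Relative to epithelium Car1 also passed as lower in DSS (-0.97, adjusted p = 0.026).

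Car2 encodes the fast cytosolic isoform, and its gene (chr3:14886273-14900770) is close to Car1 (chr3:14766216-14808368). Its level was 278, 337, 103, 297 and 108 FPKM in DSS, 124, 286, 375 and 197 FPKM in HMLS and 237, 134, 264, 117 and 159 FPKM in TM. CON libraries had 361 to 491 FPKM with a median of 434. Each of the DSS and TM libraries was lower than any CON library, and so were 3 of 4 HMLS libraries, replicate 7 being the exception. The coefficient of variation was 49.2% in DSS, 44.4% in HMLS and 35.5% in TM, against 11% in CON. Car2 fell in each group against CON, 2.13-fold in DSS (-1.09 ± 0.260, adjusted p = 0.00826), 1.88-fold in HMLS (-0.91 ± 0.214, adjusted p = 0.00572) and 2.45-fold in TM (-1.29 ± 0.174, adjusted p = 0.000291). Groups that do not overlap were seen for 7.85% of genes in DSS and 8.06% in TM against CON. In whole tissue, fewer cells that express a gene and less of its RNA per cell cannot be told apart.

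With the mapped share as a covariate the call of Car2 held in HMLS and TM and ended in DSS (-0.74, adjusted p = 0.401), and against the 5 CON libraries of low distal Hox sum it also ended in DSS (-0.999, adjusted p = 0.0532). Red blood cell genes summed to 5.96 to 139 FPKM in DSS, 5.20 to 27.5 FPKM in HMLS, 13.1 to 305 FPKM in TM and 20.03 to 78.6 FPKM in CON. Of the 9 genes in that sum, Hbb-b1 (0.0425 to 207 FPKM over the 22 libraries) and Hba-a1 (0.00438 to 71.5 FPKM) had the highest means, and 3 genes, among them Slc4a1, were under 1 FPKM in every library. Of those tested, 0 passed in DSS and TM, while in HMLS Hbb-b1 fell, as did Hbb-bt, which passed the filter on low values through CON. TM replicate 7, which had the highest sum, had 1973 FPKM of Car1 and 117 FPKM of Car2, the lowest of its group for both. That is 1 library, and the relation of the sum to Car1 and Car2 was not tested.

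Car4 encodes the isoform anchored to the outer face of the apical membrane, and its gene lies at chr11:84957786-84966044. Its level was 131, 228, 113, 154 and 367 FPKM in DSS, 156, 81.2, 183 and 121 FPKM in HMLS and 24.1, 148, 179, 237 and 188 FPKM in TM. In CON it was 54.2 to 202 FPKM with a median of 61.4, the highest being replicates 7 and 8 at 202 and 179 FPKM. Of the DSS libraries 2 of 5 lay above every CON library. Car4 averaged 198 ± 104 FPKM in DSS and 95.4 ± 60.2 FPKM in CON (SD, n = 5 and 8) and rose 2.16-fold (1.11 ± 0.371, adjusted p = 0.0392). This call ended in 9 of 13 fits without 1 library, namely DSS replicate 2, 6 or 7 or any of CON replicates 1 to 6 (adjusted p up to 0.113). It also ended relative to epithelium (0.66, adjusted p = 0.115) and with the mapped share as a covariate (0.32, adjusted p = 0.806). The difference was 0.64 ± 0.388 in HMLS and 0.58 ± 0.530 in TM (adjusted p = 0.22 and 0.447). Without TM replicate 3, which had the lowest Car4 of all 22 libraries, the difference in TM passed (1.15, adjusted p = 0.0324).

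Cftr, the chloride and bicarbonate channel of crypt cells, was at 36.8, 41.5, 18.4, 48.1 and 44.2 FPKM in DSS and 22.1, 44.8, 50.7 and 36.6 FPKM in HMLS. The TM libraries were close together, at 34.0, 37.4, 32.8, 32.8 and 31.7 FPKM, and CON libraries were at 37.7 to 54.9 FPKM with a median of 45.9. All 5 TM libraries lay below every CON library, the highest TM library (37.4 FPKM) being just under the lowest CON library (37.7 FPKM). Groups without overlap were seen for 8.06% of genes in TM against CON. Cftr averaged 33.8 ± 2.196 FPKM in TM and 46.2 ± 6.63 FPKM in CON (SD, n = 5 and 8) and fell 1.35-fold (-0.43 ± 0.101, adjusted p = 0.00682). This call ended when all 22 libraries shared 1 fit (-0.43, adjusted p = 0.112). In DSS and HMLS the differences were -0.34 ± 0.187 and -0.30 ± 0.178 (adjusted p = 0.183 and 0.197). Relative to epithelium both passed as lower, in DSS (-0.80, adjusted p = 0.00235) and in HMLS (-0.65, adjusted p = 0.0134).

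Slc12a2, which encodes the cotransporter NKCC1 of sodium, potassium and chloride, was at 109, 130.3, 196, 80.0 and 94.2 FPKM in DSS and 146, 69.0, 129 and 154 FPKM in HMLS. In TM it was at 82.2, 180.0, 115, 157 and 165 FPKM and in CON at 115 to 160.1 FPKM with a median of 128. Colitis libraries lay on both sides of CON, 5 of 14 below and 3 of 14 above every CON library. The difference was -0.17 ± 0.176 in DSS, -0.13 ± 0.181 in HMLS and 0.04 ± 0.166 in TM against CON (adjusted p = 0.487, 0.587 and 0.868). Their 95% intervals, -0.55 to 0.20 in DSS, -0.52 to 0.25 in HMLS and -0.31 to 0.40 in TM, did not reach a 2-fold change in either direction. Relative to epithelium the value in DSS passed as lower (-0.63, adjusted p = 0.0318).

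No member passed between colitis groups by limma, where 0% of 13341 genes passed in each of the 3 comparisons. The 2 groups overlapped for every member, and groups without overlap were seen for 1.17% of genes in HMLS against DSS, 0.465% in TM against DSS and 3.84% in HMLS against TM. At an unadjusted p under 0.05, 740 genes (5.55%) were found in HMLS against DSS, 367 (2.75%) in TM against DSS and 1260 (9.44%) in HMLS against TM. The member at such a p was Car1 in HMLS against TM, which stood 0.85 ± 0.301 higher in HMLS with 3 of 4 HMLS libraries above every TM library (95% interval 0.21 to 1.49, adjusted p = 0.456). For Aqp4 the same comparison gave -1.03 (unadjusted p = 0.0504, adjusted p = 0.526), and for Slc9a3 0.83 (-0.30 to 1.95). Against DSS, Slc9a3 differed by 0.12 (95% interval -1.01 to 1.24) in HMLS and by -0.71 (-1.77 to 0.35) in TM. Car2 differed by 0.18 (-0.69 to 1.06) in HMLS and by -0.20 (-1.02 to 0.62) in TM. Cftr, whose intervals were the narrowest, differed by 0.04 (-0.51 to 0.58) in HMLS and by -0.09 (-0.61 to 0.43) in TM. Aqp8, whose intervals were the widest, differed by -0.33 (-2.63 to 1.97) in HMLS and by -0.05 (-2.22 to 2.11) in TM. For 7 of the 9 members the interval of HMLS against DSS reached a 2-fold difference in at least one direction, and so it did for 5 of 9 in TM against DSS. A p that misses the threshold here does not show that the waters and DSS alone act alike.

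Members also varied between libraries of the same group, and several did so together. Pearson's r and Spearman's rho were computed over 22 libraries after the mean of each group was removed, with 100000 permutations within groups, and adjusted over the 36 pairs. By r 8 pairs passed, 5 positive and 3 negative, and all 8 also passed by rho. The share of pairs of other genes that would pass was not computed, so the 8 pairs are not read as particular to these genes. The highest r was that of Aqp8 and Slc26a3 (r = 0.88, permutation p = 4e-05, adjusted p = 0.00072, with rho = 0.83, permutation p = 0.00014, adjusted p = 0.00306). Without the 2 libraries farthest from the median of Aqp8 it was 0.81. HMLS replicate 6 was the highest of all libraries for both genes, at 469 FPKM of Aqp8 and 497 FPKM of Slc26a3. Both ran against Slc12a2, Aqp8 with r = -0.70, permutation p = 0.00045, adjusted p = 0.0054, with rho = -0.70, permutation p = 0.00063, adjusted p = 0.00756, and Slc26a3 with r = -0.76, permutation p = 3e-05, adjusted p = 0.00072, with rho = -0.73, permutation p = 0.00017, adjusted p = 0.00306. Without the 2 farthest libraries r was -0.61 for Aqp8 and -0.69 for Slc26a3. The sign was the same within each of the 4 groups for these 3 pairs.

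Slc9a3 and Car4 also went together (r = 0.76, permutation p = 0.0044, adjusted p = 0.0343, with rho = 0.61, permutation p = 0.00625, adjusted p = 0.0341), and r was 0.54 without the 2 farthest libraries. Aqp4 went with Aqp8 (r = 0.60, permutation p = 0.00477, adjusted p = 0.0343, with rho = 0.60, permutation p = 0.00593, adjusted p = 0.0341) and with Slc26a3 (r = 0.57, permutation p = 0.00762, adjusted p = 0.0381, with rho = 0.57, permutation p = 0.0104, adjusted p = 0.0418). Without the 2 farthest libraries these were 0.58 and 0.53, and over the 19 libraries other than CON replicates 1, 4 and 7 they were 0.35 and 0.31, so both relations rest in part on those 3 libraries. The other pairs that passed were Aqp4 with Car2 (r = 0.42, permutation p = 0.00846, adjusted p = 0.0381, with rho = 0.49, permutation p = 0.0078, adjusted p = 0.0351) and Aqp4 with Slc12a2 (r = -0.47, permutation p = 0.00644, adjusted p = 0.0381, with rho = -0.53, permutation p = 0.00576, adjusted p = 0.0341). Over the same 19 libraries r was 0.48 with Car2 and -0.48 with Slc12a2, and without the 2 farthest libraries 0.45 and -0.46.

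**Figure D3:**
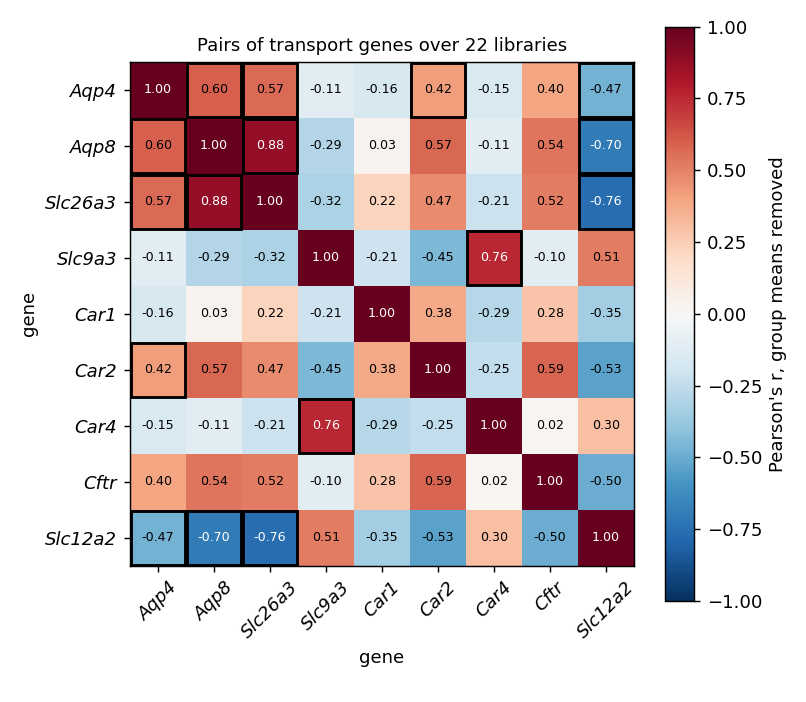
Pearson's r between log2(FPKM + 1) of each pair of the 9 genes over 22 libraries after removal of the 4 group means. Boxed cells passed at an adjusted p under 0.05 over 36 pairs, the most positive being Aqp8 with Slc26a3 (0.88) and the most negative Slc26a3 with Slc12a2 (-0.76).

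**Figure D4:**
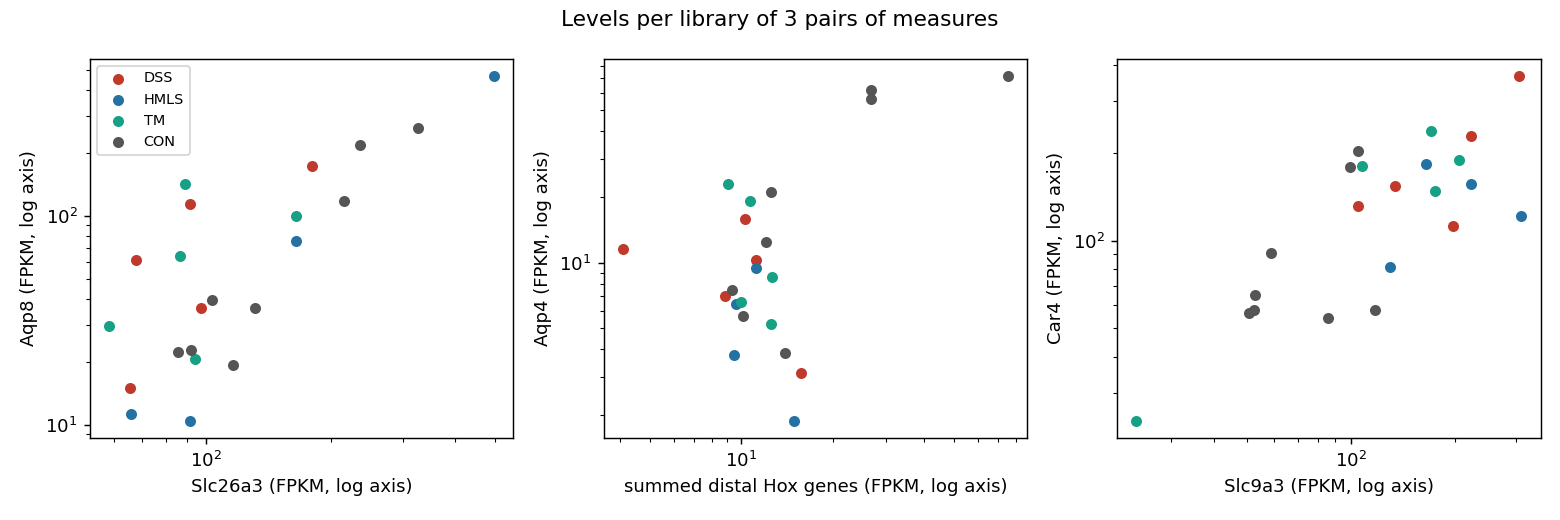
Levels per library in FPKM of Aqp8 and Slc26a3, of Aqp4 and the summed distal Hox genes, and of Car4 and Slc9a3, on log axes. Each point is 1 library, marked by group. In the panel of Hox genes CON replicates 1, 4 and 7 stand apart, with 26.8 FPKM or more of Hox genes and 56.2 FPKM or more of Aqp4, and in the panel of Car4 and Slc9a3 TM replicate 3 is lowest for both genes.

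As a description over the same 22 libraries with group means removed, the genes whose pattern was most like each member were sought among 8838 genes with a mean of at least 5 FPKM, and are given with their r. For Aqp4 they were Retnlb (0.923), Sval1 (0.833) and Spink3 (0.831), the first of them a secreted protein of goblet cells. Retnlb ranged over 68.3 to 349 FPKM in DSS, 18.01 to 152 in HMLS, 28.1 to 370.5 in TM and 3.55 to 585 in CON. For Aqp8 they were Slc26a3 (0.882), Prr15 (0.863) and Mfsd7a (0.852), and for Slc26a3 Prr15 (0.915), Aqp8 (0.882) and Ahcyl2 (0.862). For Slc9a3 they were Psd4 (0.871), Glt1d1 (0.838) and Trak1 (0.82), and for Car4 Ptk2b (0.867), Cnnm3 (0.817) and Prkce (0.812). For Car1 they were Ccnd2 (0.797), Cyp2c65 (0.757) and Maoa (0.748), a cyclin, a cytochrome P450 and a monoamine oxidase.

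For Car2 they were Cdc42ep2 (0.945), Myb (0.945) and Akr1c14 (0.934). Myb is a transcription factor of crypt progenitors, and was at 14.7, 12.9, 3.19, 12.2 and 4.15 FPKM in DSS replicates 1, 2, 5, 6 and 7, lowest in replicates 5 and 7, as was Car2. For Cftr they were Cpne1 (0.881), Trmt1l (0.859) and Slc5a8 (0.857), the last a cotransporter of sodium and monocarboxylates. For Slc12a2 they were Fam134b (0.898), Rab37 (0.868) and Zfp869 (0.868).

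Other genes of colonic ion and water transport were taken from 7 lists of 69 genes, of which 67 were in the table and 53 were tested against CON. In DSS 15 rose and 7 fell (41.5%, beside 27.1% of all genes), in HMLS 14 rose and 8 fell (41.5%, beside 34.1%) and in TM 10 rose and 9 fell (35.8%, beside 26%). Their median log2 difference was 0.15 in DSS, 0.16 in HMLS and 0.06 in TM, beside -0.01, 0.00 and 0.01 over all genes. Among these calls are 1 in DSS (Car5b), 1 in HMLS (Slc26a6) and 3 in TM (Car5b, Slc26a6 and Aqp7) of genes that reached 1 FPKM in fewer than 4 libraries of the colitis group and passed the filter on low values through CON, where they were higher. Their calls are counted and not read as a change. Between colitis groups 0 of the 51 tested passed. Calls of these genes are from the main fits alone, and the alternatives were read for the members only. Relative to epithelium every difference against CON is lower by the amount seen for Slc26a3. Slc26a3 went from -0.64 to -1.09 in DSS, from 0.03 to -0.31 in HMLS and from -0.64 to -1.07 in TM. Whether the rises given below hold in that setting was not tested.

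Of 7 other sodium and proton exchangers and scaffolds tested, 3 rose and 1 fell in DSS, 2 rose and 1 fell in HMLS, and 1 rose and 1 fell in TM. NHERF2 (Slc9a3r2), a scaffold that binds NHE3, fell, with log2 differences of -1.05 in DSS, -1.18 in HMLS and -0.68 in TM (adjusted p = 0.000335, 0.000106 and 0.00147). NHERF1 (Slc9a3r1), the related scaffold, rose by 0.51 in DSS (adjusted p = 0.0407) and differed by 0.48 in HMLS and 0.21 in TM (adjusted p = 0.0624 and 0.321). NHE8 (Slc9a8) rose by 0.32 in DSS, 0.47 in HMLS and 0.34 in TM (adjusted p = 0.0302, 0.00304 and 0.0219). NHE2 (Slc9a2) rose by 0.49 in HMLS (adjusted p = 0.0215).

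Among 7 chloride channels and cation chloride cotransporters, 2 rose and 1 fell in DSS and in TM, and 2 rose and 2 fell in HMLS. The chloride channel Clcn2 rose by 0.63 in DSS, 0.65 in HMLS and 0.62 in TM (adjusted p = 0.0328, 0.03 and 0.0385). Best2, an anion channel of colonic goblet cells, rose by 1.09 in DSS, 1.09 in HMLS and 1.41 in TM (adjusted p = 0.0029, 0.0247 and 0.00339). Ano1, a calcium-activated chloride channel that also marks pacemaker cells of the gut wall, fell, with differences of -0.79 in DSS, -0.75 in HMLS and -0.57 in TM (adjusted p = 0.00365, 0.00627 and 0.00688). Slc12a4, a potassium and chloride cotransporter, fell, with -0.35 in HMLS (adjusted p = 0.0336).

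Of 8 potassium channels and pumps, 2 rose and 2 fell in each of the 3 groups. Kcne3, a channel subunit that supports chloride secretion driven by cAMP, fell, with -1.72 in DSS, -1.83 in HMLS and -1.34 in TM (adjusted p = 0.0094, 0.00273 and 0.00253). The calcium-activated potassium channel Kcnn4 fell too, with -0.91 in DSS, -1.40 in HMLS and -0.87 in TM (adjusted p = 0.0324, 0.000915 and 0.00114). Atp1b1, a subunit of the sodium pump, rose by 1.03 in DSS, 1.19 in HMLS and 0.82 in TM (adjusted p = 0.00223, 0.000349 and 0.00656), and the potassium channel Kcnk5 by 0.60 in DSS, 0.72 in HMLS and 0.44 in TM (adjusted p = 0.00471, 0.00122 and 0.0415).

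Of 8 other carbonic anhydrases, 3 rose and 2 fell in DSS, 1 rose and 1 fell in HMLS, and 2 rose and 2 fell in TM. Car14, a membrane-bound isoform, rose by 0.91 in DSS, 0.94 in HMLS and 0.77 in TM (adjusted p = 0.00437, 0.00167 and 0.00328). Car9, an isoform induced by hypoxia, rose by 0.64 in DSS and 0.35 in TM (adjusted p = 0.00225 and 0.0362), and Car12 by 0.40 in DSS (adjusted p = 0.0247). Car3, an isoform of fat and muscle, fell, with -4.13 in DSS, -2.75 in HMLS and -4.94 in TM (adjusted p = 0.00266, 0.0313 and 0.000529). Fat cell genes, of which 4 of 5 tested fell in DSS, 0 in HMLS and 5 in TM, summed to 39.6 to 115 FPKM in DSS, 38.6 to 448 FPKM in HMLS, 30.5 to 92.1 FPKM in TM and 67.3 to 883 FPKM in CON, and their part in the result was not tested. Among these calls, Plin1 in DSS and TM and Adipoq in TM passed the filter on low values through CON, where they were higher. Those are counted and not read as a change. The mitochondrial isoform Car5b averaged 0.987 ± 0.181 FPKM in DSS, 0.878 ± 0.203 FPKM in TM and 3.34 ± 2.13 FPKM in CON.

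Of 3 other aquaporins tested, Aqp1, the water channel of endothelium and red blood cells, fell, with -1.41 in DSS, -1.33 in HMLS and -0.97 in TM (adjusted p = 0.00119, 0.000653 and 0.000647). Aqp7, a channel for water and glycerol, averaged 0.170 ± 0.0817 FPKM in TM and 0.943 ± 0.584 FPKM in CON. Of 7 other anion and bicarbonate transporters, 2 rose in DSS, 2 rose and 1 fell in HMLS, and 1 fell in TM. The sulfate transporter Slc26a2 rose by 0.52 in DSS and 0.73 in HMLS (adjusted p = 0.0275 and 0.00513), and the basolateral anion exchanger Slc4a2 by 0.39 in DSS and 0.45 in HMLS (adjusted p = 0.0268 and 0.0327). Slc26a6, an anion exchanger related to Slc26a3, averaged 0.842 ± 0.248 FPKM in HMLS, 0.773 ± 0.273 FPKM in TM and 1.38 ± 0.287 FPKM in CON.

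Of 13 regulators of secretion and absorption, 3 rose in DSS, 5 in HMLS and 3 in TM, and 0 fell. Vipr1, a receptor of the secretory neuropeptide VIP, rose by 0.70 in DSS, 0.78 in HMLS and 0.70 in TM (adjusted p = 0.00286, 0.00582 and 0.000665). Wnk4, a kinase upstream of chloride cotransporters, rose by 0.60 in DSS, 0.52 in HMLS and 0.62 in TM (adjusted p = 0.00362, 0.00986 and 0.0118), and Ahcyl1, a regulator of ion transporters, by 0.48 in DSS, 0.62 in HMLS and 0.49 in TM (adjusted p = 0.0409, 0.00686 and 0.0334). Gucy2c, the guanylin receptor, rose by 0.37 in HMLS (adjusted p = 0.0133), and Adora2b, an adenosine receptor, by 0.64 in HMLS (adjusted p = 0.0184).

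**Figure D5:**
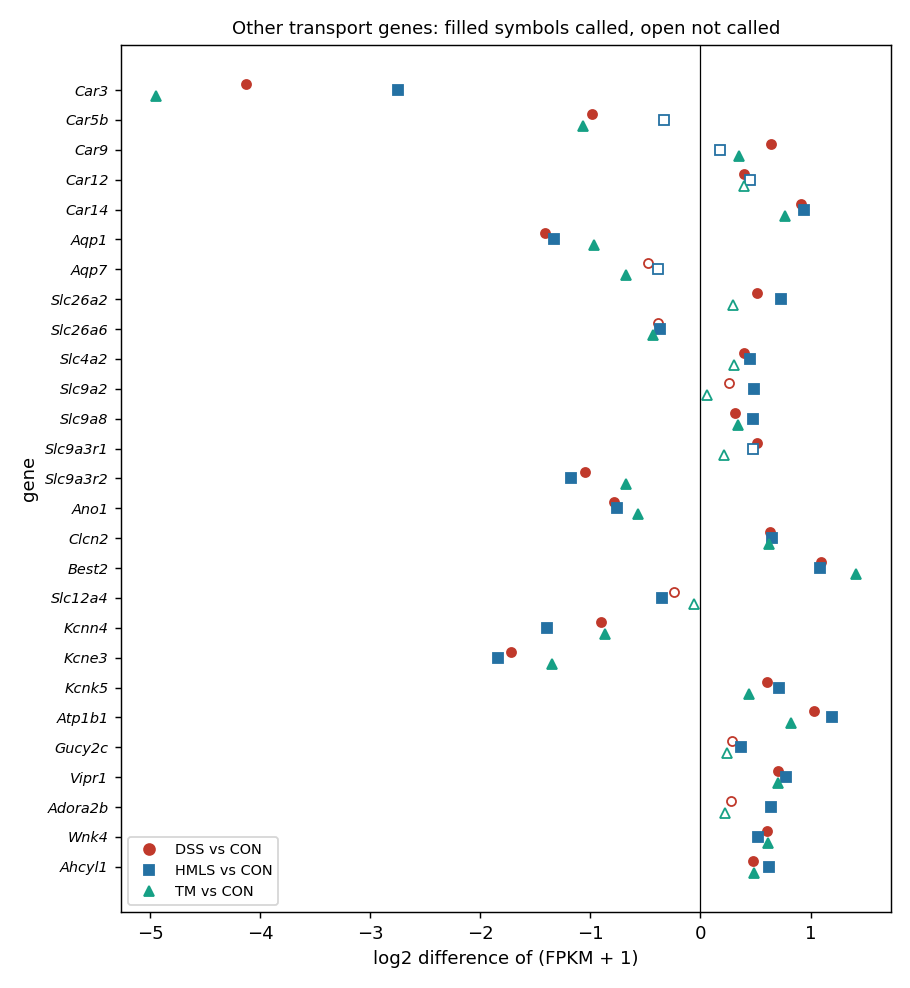
Log2 difference of (FPKM + 1) against CON of 27 of the 28 other transport genes that passed in at least 1 of the 3 comparisons. Markers differ for DSS, HMLS and TM, and are filled where the gene passed and open where it did not. Car3 lies farthest left, from -2.75 in HMLS to -4.94 in TM, and Best2 in TM lies farthest right, at 1.41.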

How the data were processed

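FPKM values of 23997 genes in 22 libraries were deposited by the authors as 1 table that names no unit, and were read as FPKM because the submitters' processing notes name Cufflinks 2.2.0 (with bcl2fastq 2.20, Bowtie without a version, TopHat2 2.0.13 and mm10, settings not given in the sources used here). Per the labels, libraries came from a TruSeq stranded total RNA kit. Read counts per library and the percent mapped were deposited by the authors as well. Gene counts were not used here, so the reads behind each value are unknown and precision rests on the spread between libraries. Because FPKM is scaled to each library's total, a rise of abundant genes lowers the rest.

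Tests were made with limma 3.58.1 (trend and robust, R 4.3.3) on log2(FPKM + 1) of genes at 1 FPKM or more in at least 4 libraries. They were adjusted over all genes tested. Comparisons with CON were fitted on the 2 groups alone, and the others in 1 fit of the 3 colitis groups. The log2(FPKM + 1) scale understates changes of genes near 1 FPKM. The tests were also run on simulated data with 200 changed genes and normal noise, of equal spread in all groups. Against CON, 90% to 92% of 2-fold and 48% to 65% of 1.5-fold changes were recovered. Between colitis groups these were 72% to 86% and 23% to 30%. The real data had more genes called against CON and spreads that could differ by group, so these rates may not hold there. The 9 genes, the lists and the tests were chosen with earlier results of these data known. Every member was named, other transport genes where they passed, and for each member the 3 genes most like it. Further names were chosen after their values were seen. Some genes counted in the lists are not reported here by name. Correlations and figures used Python 3.11.15. Positions are from GENCODE M21 and promoters from RefSeq, both on GRCm38, the assembly of mm10. The alternatives were another pseudocount, no filter, another scaling, no variance trend, the mapped share as a covariate, the replicate number as a block, 1 fit of all libraries, levels relative to epithelium, single libraries left out and, chosen after seeing the data, CON without its 3 libraries of highest distal Hox sum.

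The numbers in the library titles were checked for pairing by correlating deviations from the group means. In TM vs DSS the r of all 3 shared numbers was over 0.1 (0.137 to 0.432). The library of the same number was the best match for 1 of these 3, so the values do not settle whether the libraries are paired. The labels name no pairing. There 0 genes were called with or without the block, so the blocked fit could end no call. In each of the other comparisons some shared numbers had an r under 0.1.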

Additional observations from a re-analysis of the deposited data

Results flagged for a closer look

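Of 36 sets of values (9 genes in 4 groups), 2 held a library far from the others of its group. The rule was applied to FPKM and not on the log2 scale of the tests. Its rate by chance of about 1 in 20 holds for normally distributed values, and the distribution of these levels was not tested. Aqp8 in HMLS replicate 6 was at 468.6 FPKM, with the next HMLS library at 75.7 FPKM (gap over range 0.857, critical value 0.829 for 4 libraries). Slc26a3 in DSS replicate 6 was at 180.4 FPKM, with the next DSS library at 97.5 FPKM (gap over range 0.721, critical value 0.71 for 5 libraries).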

How the results depend on the processing

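The direction of each of the 8 calls of members against CON was the same under every alternative. The calls that ended, and members that passed under 1 alternative alone, are given beside the genes, save for 2 calls under the replicate block (next paragraph), for Aqp4, which passed as lower in HMLS against CON with the mapped share as a covariate (-3.09, adjusted p = 0.0301), and for Car4 in DSS, which also missed without the filter (adjusted p = 0.0563), with all 22 libraries in 1 fit (0.0785) and against the 5 CON libraries of low distal Hox sum (0.0524). The count of genes called in DSS against CON was 3655, and 26 with the mapped share as a covariate (4 higher, 22 lower). Against the 5 CON libraries of low distal Hox sum, chosen after seeing the data, 1925 genes were called in DSS, 2848 in HMLS (4565 with all CON libraries) and 2315 in TM (3510 with all CON libraries). Without 1 library the counts were 2493 to 4166 in DSS, 3106 to 4808 in HMLS, 2501 to 4170 in TM, 0 to 1 in HMLS against DSS, 0 to 0 in TM against DSS and 0 to 3 in HMLS against TM. In HMLS against DSS and against TM the calls came without HMLS replicate 3. The cause was not tested.

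With the replicate number as a block the counts were 2176 in DSS, 753 in HMLS and 2000 in TM against CON, and 0 in the others. Under the block Car2 in HMLS (-0.83, adjusted p = 0.0835), and Cftr in TM (-0.35, adjusted p = 0.0596), no longer passed. In these comparisons the libraries share only a number, with correlations of deviations from -0.20 to 0.32 in DSS, -0.11 to 0.07 in HMLS and -0.003 to 0.20 in TM.

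Members that did not pass changed sign as follows. With the block these were in DSS vs CON Aqp8 (-0.061), in HMLS vs CON Aqp8 (0.094) and Car1 (-0.015), in HMLS vs DSS Aqp8 (0.48), in TM vs DSS Aqp8 (0.98), Car2 (0.30) and Cftr (0.093). With the mapped share they were in DSS vs CON Aqp8 (-0.77) and Slc12a2 (0.36), in HMLS vs CON Slc26a3 (-0.84) and Slc12a2 (0.23), in HMLS vs DSS Car2 (-0.21), Car4 (0.14) and Slc12a2 (-0.18), in TM vs DSS Aqp8 (0.076), Slc26a3 (0.45), Slc9a3 (0.20), Car4 (0.38), Cftr (0.39) and Slc12a2 (-0.11), in HMLS vs TM Car4 (-0.24) and Cftr (-0.031). Relative to epithelium they were in DSS vs CON Aqp8 (-0.40), in HMLS vs CON Slc26a3 (-0.31) and Car1 (-0.29), in TM vs CON Aqp8 (-0.42) and Slc12a2 (-0.38), in TM vs DSS Slc26a3 (0.024). With median-of-ratios scaling they were in HMLS vs CON Slc26a3 (-0.0072), in TM vs CON Aqp8 (-0.029), and against the 5 CON libraries in HMLS vs CON Aqp8 (0.76) and Car1 (-0.14), in TM vs CON Aqp4 (0.28) and Slc12a2 (-0.063). Ranges over fits without 1 library that cross 0 were in DSS vs CON Aqp8 (-0.33 to 0.53), in HMLS vs CON Aqp8 (-1.38 to 0.41), Slc26a3 (-0.54 to 0.42), Car1 (-0.075 to 0.20) and Slc12a2 (-0.26 to 0.12), in TM vs CON Aqp8 (-0.33 to 0.36) and Slc12a2 (-0.061 to 0.22), in HMLS vs DSS Aqp8 (-1.44 to 0.35), Slc12a2 (-0.096 to 0.30), Cftr (-0.20 to 0.27), Car2 (-0.060 to 0.47) and Slc9a3 (-0.10 to 0.32), in TM vs DSS Car4 (-0.77 to 0.041), Aqp8 (-0.53 to 0.34), Slc26a3 (-0.21 to 0.23), Aqp4 (-0.011 to 0.52) and Cftr (-0.32 to 0.011), in HMLS vs TM Aqp8 (-1.38 to 0.40), Car4 (-0.51 to 0.30), Slc12a2 (-0.35 to 0.081) and Cftr (-0.022 to 0.36). Reads per gene are unknown, so depth limits could not be set.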
